A study of Canis lupus familiaris with 8 samples.

Results

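Signals of 8 canine miRNAs were described on miRNA microarrays of a canine mammary tumour cell line: the 5 members of the miR-200 family (cfa-miR-200a, cfa-miR-200b, cfa-miR-200c, cfa-miR-141 and cfa-miR-429) and the 3 members of the miR-183 cluster (cfa-miR-183, cfa-miR-96 and cfa-miR-182), written below without the prefix for the dog. They were taken by name from the 454 canine miRNAs on the array, and all 8 were present, with 22 probes between them. Each probe is a short DNA oligonucleotide printed in many copies (spots), and each miRNA had 40 spots. The study hybridised 8 samples to 1-colour arrays, 2 in each of 4 groups. Star CSC were cells sorted as cancer stem cells (CSC) from CMT-Star, and Star parent was the unsorted CMT-Star line. CMT-Star had been derived from CMT-Stylo by rising exposure to doxorubicin until it resisted 100 nM, and both Star groups are labelled as doxorubicin treated. Stylo CSC were cells sorted from CMT-Stylo, and Stylo parent was the unsorted CMT-Stylo line, both labelled as not treated. The sort took cells that were positive for CD44, negative or low for CD24 and positive for aldehyde dehydrogenase. Star is a single derived subline, so resistance cannot be told apart from other differences of that subline.

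The miR-200 family keeps epithelial cells epithelial. Its members repress the transcription factors ZEB1 and ZEB2, which in turn repress the miR-200 genes and the cell adhesion gene CDH1, and loss of the family accompanies the epithelial to mesenchymal transition. In human and mouse breast tissue, miR-200c and the miR-183 cluster have been described as low in mammary stem cells and in breast cancer stem cells. The miR-183 cluster is known best from sensory cells of the eye and ear, and it is abundant in many carcinomas.

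In the RefSeq annotation of the dog assembly UU_Cfam_GSD_1.0 the 8 genes lie in 3 groups. MIR200B, MIR200A and MIR429 neighbour each other between TTLL10 and TNFRSF18. MIR200C and MIR141 neighbour each other next to PHB2. MIR183, MIR96 and MIR182 neighbour each other between UBE2H and NRF1. The array was designed on another assembly, so positions are not printed.

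Both Stylo parent samples carried the same scanner values, at 20324 of 20324 spots. Since these values were identical the 2 were treated as 1 sample. In the fits of scanner values 7 distinct arrays were thus used, and Stylo parent had n = 1. Nothing in the labels gives separate cultures for the replicates, and p-values therefore reflect the spread between arrays, which can be technical. The number of arrays limits the precision. Stylo CSC replicate 1, the only array on slide 2, stood apart: over the 46 miRNAs tested on processed signal its correlation with each of the other arrays was 0.762 to 0.807, against 0.935 to 0.998 among the others. A miRNA was called well above background on an array where over 50% of the kept spots of at least 1 of its probes carried the software's mark for that. By this rule 49 and 43 miRNAs were well above background in Star CSC, 35 and 40 in Star parent, 24 and 40 in Stylo CSC and 33 in Stylo parent. No negative control spot carried the mark on any array, and the lowest spot that did measured 20.3 to 25.4 scanner units. The 7 negative control probes, which match no dog miRNA, had background-subtracted means between 0.484 and 4.38 units.

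Of the 8 miRNAs, only miR-183 was well above background, and only on the array of Star CSC replicate 1. Over all miRNAs on the array, 54 of 454 (11.9%) were well above background on at least 1 array. The detection software's own call per miRNA added miR-182: it marked miR-183 on both Star CSC arrays and miR-182 on the first of them, and no member on any other array. That call marked 77 of 454 miRNAs (17%) on at least 1 array.

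**Figure D1:**
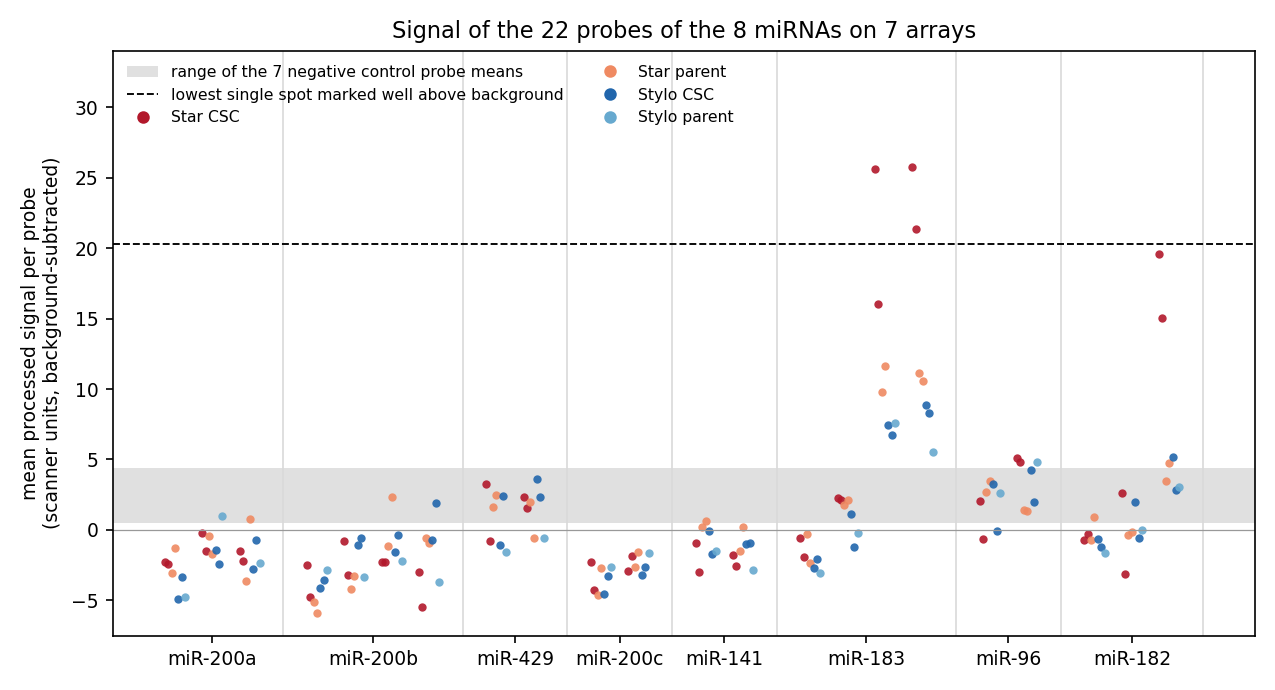
Each point is the mean background-subtracted signal (scanner units, vertical axis) of 1 of the 22 probes on 1 of the 7 arrays, with the miRNAs along the horizontal axis, colours for the 4 groups, the grey band for the negative control probe means and the dashed line at 20.3 units for the lowest spot marked well above background. All probes of the miR-200 family lie at 3.63 units or lower, while in Star CSC 2 probes of miR-183 and 1 of miR-182 stand at 15.0 units or higher. A probe of miR-96 lies just above the band in Star CSC, at 5.12 and 4.81 units, and in Stylo parent, at 4.81 units.

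The miR-200 family gave no signal above the negative controls on any array. Its 13 probes on 7 arrays gave 91 probe means, of which 82 were below the mean of the negative controls on the same array and 0 were above the highest negative control probe. None of its 1343 kept spots was well above background. The software marks a spot separately where its signal is significantly positive. That share was 3.65% to 12% of the family's spots over the 7 arrays, against 20.7% to 40.2% of the negative control spots. It was below that of the controls on each of the 7 arrays. Each array measured RNA from many cells, so fewer cells with a miRNA and less of it per cell cannot be told apart.

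MiR-429 was the brightest member of the family, with probe means between −1.57 and 3.63 units. Its summed signal, the sum of the means of its probes, was 5.65 and 0.753 units in Star CSC, 3.60 and 1.90 in Star parent, 2.55 and 4.75 in Stylo CSC and −2.13 in Stylo parent. The groups overlapped, apart from the single Stylo parent array, which was the lowest. Of the 14 probe means of miR-429, 7 were below the negative control mean.

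MiR-200c, which represses ZEB1, gave −5.17 and −6.07 units in Star CSC, −7.23 and −4.30 in Star parent, −7.75 and −5.89 in Stylo CSC and −4.25 in Stylo parent. Its partner miR-141 gave −2.72 and −5.59 units in Star CSC, −1.25 and 0.860 in Star parent, −1.1 and −2.65 in Stylo CSC and −4.35 in Stylo parent. All 14 probe means of each were below the negative control mean. A negative value says that the spots were dimmer than the background subtracted from them, and differences between such values are not read as differences in level.

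MiR-200a, transcribed with miR-200b and miR-429, gave probe means between −4.92 and 1.00 units, and miR-200b between −5.88 and 2.36 units. For miR-200a all 21 probe means were below the negative control mean, and for miR-200b 26 of 28. The brightest kept spot of the 4 members other than miR-429 measured 8.85 units, and that of miR-429 measured 16.7 units, both under the lowest spot marked well above background. The lowest marked spot of each array, from 20.3 units on Star parent replicate 2 to 25.4 on Star CSC replicate 2, is the upper bound there for the family's probes.

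MiR-183 was the brightest of the 8. Its summed signal was 53.1 and 37.6 units in Star CSC, 22.4 and 21.9 in Star parent, 14.8 and 11.8 in Stylo CSC and 9.88 in Stylo parent. Star CSC was highest and did not overlap the other groups. In these unscaled sums the remaining groups followed in the order Star parent, Stylo CSC and Stylo parent, also without overlap. Differences between neighbours rest on 1 or 2 arrays each, on none of which miR-183 was well above background. After the scaling given below, Stylo CSC overlapped both parent groups. How many of all miRNAs show such an order was not counted.

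The signal of miR-183 came from 2 of its 4 probes. Probe 3 (A_38_P00002202) measured 25.6 ± 2.27 and 16.1 ± 2.44 units in Star CSC (SE over the spots of 1 array), 9.79 ± 1.69 and 11.6 ± 1.04 in Star parent, 7.46 ± 2.41 and 6.76 ± 1.1 in Stylo CSC and 7.62 ± 2.39 in Stylo parent. Probe 4 (A_38_P00002203) measured 25.8 ± 1.72 and 21.4 ± 1.47 units in Star CSC, 11.1 ± 1.45 and 10.6 ± 1.25 in Star parent, 8.86 ± 1.14 and 8.31 ± 1.52 in Stylo CSC and 5.52 ± 1.53 in Stylo parent. As measured, before the scaling for array brightness given below, both probes were higher in Star CSC than in any other group. Probes 1 and 2 stayed at 2.29 units or lower and were above the highest negative control probe on no array.

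Probes 3 and 4 of miR-183 were above the highest negative control probe on 7 of 7 arrays. Among all 998 miRNA probes, 100 (10%) met this, and among the 884 probes of miRNAs that were well above background on no array, 20 (2.26%) did. On Star CSC replicate 1 the mark for well above background was carried by 7 of 10 spots of probe 3 and 9 of 10 of probe 4. On Star CSC replicate 2 it was carried by 2 of 10 spots of each. On 2 of 4 probes miR-183 thus measured above the negative control probes in all 4 groups, and it passed the detection rule on 1 array. Stylo parent is 1 array, where probe 4 gave 5.52 ± 1.53 units against 4.14 for the highest negative control probe. Outside Star CSC the software marked miR-183 on no array, so its presence there is not established.

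MiR-182, which lies at the other end of the cluster, showed signal from 1 of 3 probes. Probe 3 (A_38_P00015596) measured 19.6 ± 1.38 and 15.0 ± 1.56 units in Star CSC, 3.49 ± 0.988 and 4.75 ± 0.811 in Star parent, 5.18 ± 0.781 and 2.82 ± 1.06 in Stylo CSC and 3.05 ± 0.915 in Stylo parent. Star CSC did not overlap the other groups, whose arrays all lay at 5.18 units or lower. The probe was above the highest negative control probe on 5 of 7 arrays, and 4 of its 12 kept spots were well above background on Star CSC replicate 1 and 0 of 12 on replicate 2. Its summed signal was 21.5 and 11.7 units in Star CSC, 2.43 and 5.57 in Star parent, 6.53 and 0.982 in Stylo CSC and 1.38 in Stylo parent.

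MiR-96, which lies between them and in mouse and human is needed for hearing, was near the negative controls. Its summed signal was 7.21 and 4.20 units in Star CSC, 4.12 and 4.82 in Star parent, 7.49 and 1.92 in Stylo CSC and 7.43 in Stylo parent. The groups overlapped in this sum, and the Stylo parent array was close to the highest value. Its probe 2 (A_38_P00015576) measured 5.12 and 4.81 units in Star CSC, 1.43 and 1.37 in Star parent, 4.26 and 1.96 in Stylo CSC and 4.81 in Stylo parent. On that probe Star CSC was above Star parent, and Stylo parent was level with Star CSC replicate 2. Both Star CSC arrays and the Stylo parent array were above the highest negative control probe there. Probe 1 (A_38_P00015575) went the other way, at 2.08 and −0.610 units in Star CSC against 2.68 and 3.46 in Star parent. It was above the highest negative control probe only on Star parent replicate 2.

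**Figure D2:**
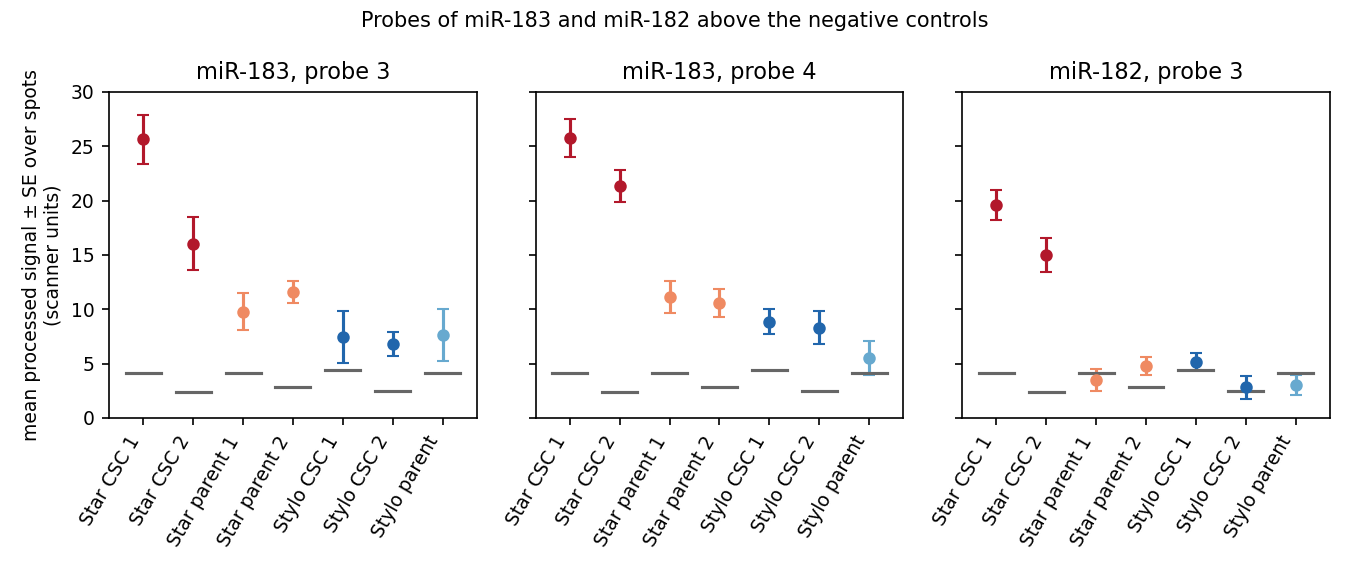
Mean background-subtracted signal of 3 probes (scanner units, vertical axis) on each of the 7 arrays, with bars for the SE over the spots of that array and a grey dash for the highest negative control probe there. The Star CSC arrays sit between 15.0 and 25.8 units and the other arrays between 2.82 and 11.6 units.

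The brightness of the arrays moved with these signals. The 75th percentile over the 22 probes that were well above background on all arrays was 500 and 452 units in Star CSC, 333 and 316 in Star parent, 212 and 307 in Stylo CSC and 219 in Stylo parent. Over the 17 miRNAs well above background on all 7 arrays, the median ratio of unscaled summed signals was 1.72 for Star CSC over Star parent and 2.11 for Star CSC over Stylo CSC. No such ratio is given for miR-183 or miR-182, which were not well above background in Star parent or Stylo CSC.

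Scaling changed which groups overlapped. The scaled summed signal of miR-183 was 33.9 and 26.6 in Star CSC, 21.4 and 22.2 in Star parent, 22.4 and 12.3 in Stylo CSC and 14.4 in Stylo parent. Star CSC remained above the other groups, and Stylo CSC then overlapped Star parent and Stylo parent. The scaled signal of miR-182 was 13.7 and 8.23 in Star CSC, 2.32 and 5.63 in Star parent, 9.86 and 1.02 in Stylo CSC and 2.02 in Stylo parent. Star CSC replicate 2 then lay below Stylo CSC replicate 1, so those groups overlapped.

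Such gaps between groups were common on these arrays. Summed signals in Star CSC were all above those in Star parent for 18.3% of the 454 miRNAs (20.3% after scaling), and above those in Stylo CSC for 18.7% (27.5% after scaling). Among the 8 members, miR-182 and miR-183 met this against Star parent, and miR-200a met it with them against Stylo CSC at negative signals in both groups. After scaling the members were miR-200c, miR-182 and miR-183 against Star parent and miR-200a, miR-200c and miR-183 against Stylo CSC.

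**Figure D3:**
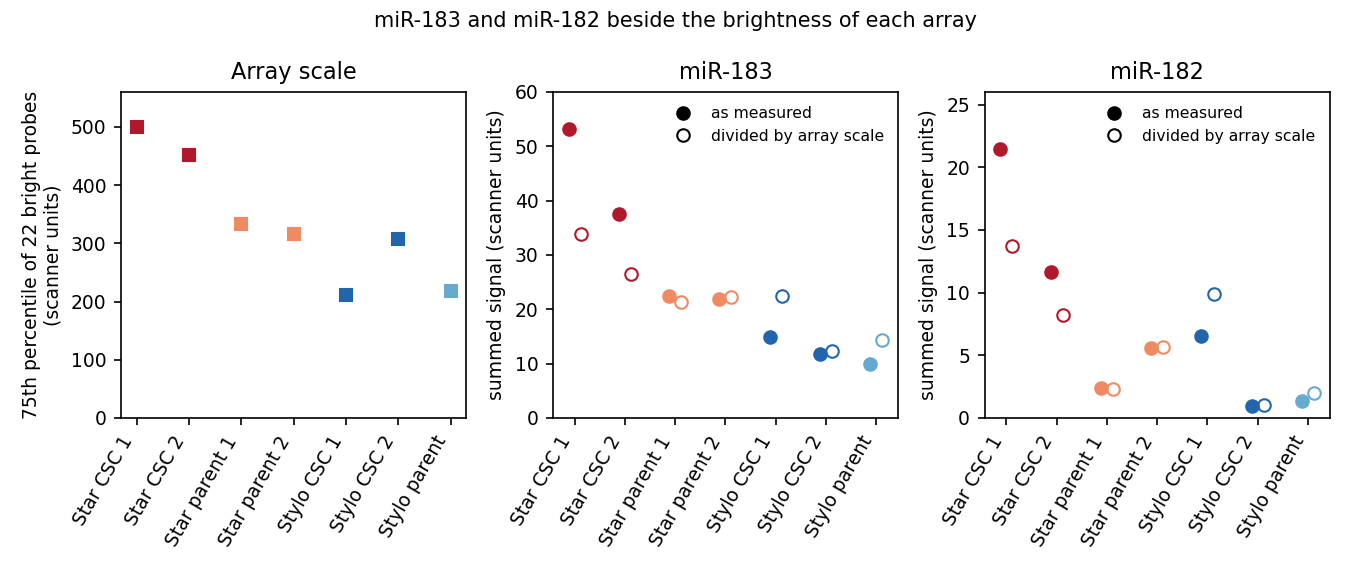
The left panel shows the 75th percentile of 22 bright probes on each array, and the others the summed signals of miR-183 and miR-182 (scanner units) as measured (filled) and divided by the array's scale relative to the other arrays (open). The Star CSC arrays are the brightest, at 500 and 452 units, and for miR-183 the distance between Star CSC (33.9 and 26.6) and the highest of the other arrays (22.4) is smaller after scaling.

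Differences between groups were tested with limma on log2 values with Benjamini-Hochberg adjustment over all miRNAs in a fit, at a threshold of 0.05. The first fit used scaled processed signals of 46 miRNAs, those with the mark on all arrays of some group. It held none of the 8 members and so gives no call for them. It called 2.17% of those miRNAs in Star CSC against Star parent, in Stylo CSC against Stylo parent and in Star parent against Stylo parent, 6.52% in Star CSC against Stylo CSC and 0% in the difference between the lines. These shares moved with single arrays. Without Stylo CSC replicate 1 they were 52%, 34%, 40%, 46% and 40% in the same order of comparisons, and without Stylo CSC replicate 2 they were 66%, 68.1%, 68.1%, 76.6% and 70.2%. They were 0% in all 5 comparisons without Star CSC replicate 1 and without either Star parent array. These fits too held none of the 8 members and give no call for them. The second used the brightness of each spot before background subtraction, as log2 centred on each array's median, over all 454 miRNAs. Most of that brightness is background, so its log2 changes are far smaller than changes in miRNA level would be.

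In Star CSC against Star parent, 0 of 8 members passed in spot brightness, where 0.661% of the 454 miRNAs passed. At an unadjusted p under 0.05 there were 2 of 8, miR-183 and miR-182, beside 29 of all 454 miRNAs. MiR-183 was 0.11 ± 0.02 higher on the log2 scale (SE) with an adjusted p of 0.209 from limma, and miR-182 was 0.08 ± 0.02 higher with an adjusted p of 0.484. The 5 miR-200 members lay between −0.04 and 0.03. The median of the 8 was 0.02, against 0.01 over all 454 miRNAs.

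On processed signal the array of Star CSC replicate 1 gave miR-183 a bound. With 1 of 2 Star CSC arrays and 0 of 2 Star parent arrays well above background, its scaled signal was at least 1.14-fold higher in Star CSC. This compares the mean of the Star CSC arrays with the lowest signal that passed the detection rule on each Star parent array, or the miRNA's own signal where that was higher. The mean holds Star CSC replicate 2 at its measured signal, although miR-183 was not well above background there, and without replicate 1 there is no bound.

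In Star CSC against Stylo CSC, 0 of 8 members passed in spot brightness, where 1.1% of all miRNAs passed. MiR-183 and miR-182 were again the 2 of 8 with an unadjusted p under 0.05, beside 44 of all 454 miRNAs. MiR-183 was 0.13 ± 0.02 higher, with an adjusted p of 0.104 from limma, and miR-182 was 0.07 ± 0.02 higher, with an adjusted p of 0.474. The miR-200 members lay between −0.02 and 0.04. No bound over 1 was obtained on processed signal.

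These comparisons share the Star CSC arrays and are not independent. Without Stylo CSC replicate 1, on slide 1 alone, miR-183 was 0.14 ± 0.03 higher in Star CSC than in Stylo CSC, with an adjusted p of 0.0941 from limma. Stylo CSC is then 1 array, assumed to vary like the other groups. The position number on the slide was 2 for all Star arrays and 1 for all Stylo arrays, so line and position cannot be told apart.

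Other measures of the same spots gave other calls. When the local background was removed with normexp, miR-183 passed in Star CSC against Stylo CSC (0.14 ± 0.02, adjusted p = 0.0332 from limma), where 1.98% of all miRNAs passed. When the processed signal of the brightest probe was used without scaling, a setting chosen after seeing the data, miR-183 passed against Star parent (0.27 ± 0.04, adjusted p = 0.0323) and against Stylo CSC (0.33 ± 0.04, adjusted p = 0.0117). MiR-182 also passed in both (0.31 ± 0.04, adjusted p = 0.0366, and 0.32 ± 0.04, adjusted p = 0.0297), while 2.42% and 3.52% of all miRNAs did. With the arrays scaled, 0 of 8 passed in either comparison in that measure (adjusted p between 0.398 and 0.734 for miR-183 and miR-182), where 0.441% and 0.661% of all miRNAs did.

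In Stylo CSC against Stylo parent, 0 of 8 members passed in spot brightness and 0% of all miRNAs did. The largest change among the members was that of miR-429, at 0.06 ± 0.02 higher. The others lay between −0.05 and 0.03, with miR-183 at 0.03 ± 0.03 and miR-182 at 0.01 ± 0.03. Stylo parent is 1 array here, so its spread is taken from the other groups.

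In Star parent against Stylo parent, 0 of 8 members passed and 0% of all miRNAs did, with 0 members at an unadjusted p under 0.05. MiR-183 had the largest change among the members, at 0.05 ± 0.03 (adjusted p = 0.998 from limma), and miR-200c the lowest, at −0.05 ± 0.03. The 5 miR-200 members lay between −0.05 and 0.04, and their median was 0.00.

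The change from parent to CSC was also compared between the lines. In that difference 0 of 8 members passed, 0 had an unadjusted p under 0.05 and 0% of all miRNAs passed. For miR-183 the difference of changes was 0.08 ± 0.04 (adjusted p = 0.993 from limma) and for miR-182 it was 0.06 ± 0.04 (adjusted p = 0.993).

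**Figure D4:**
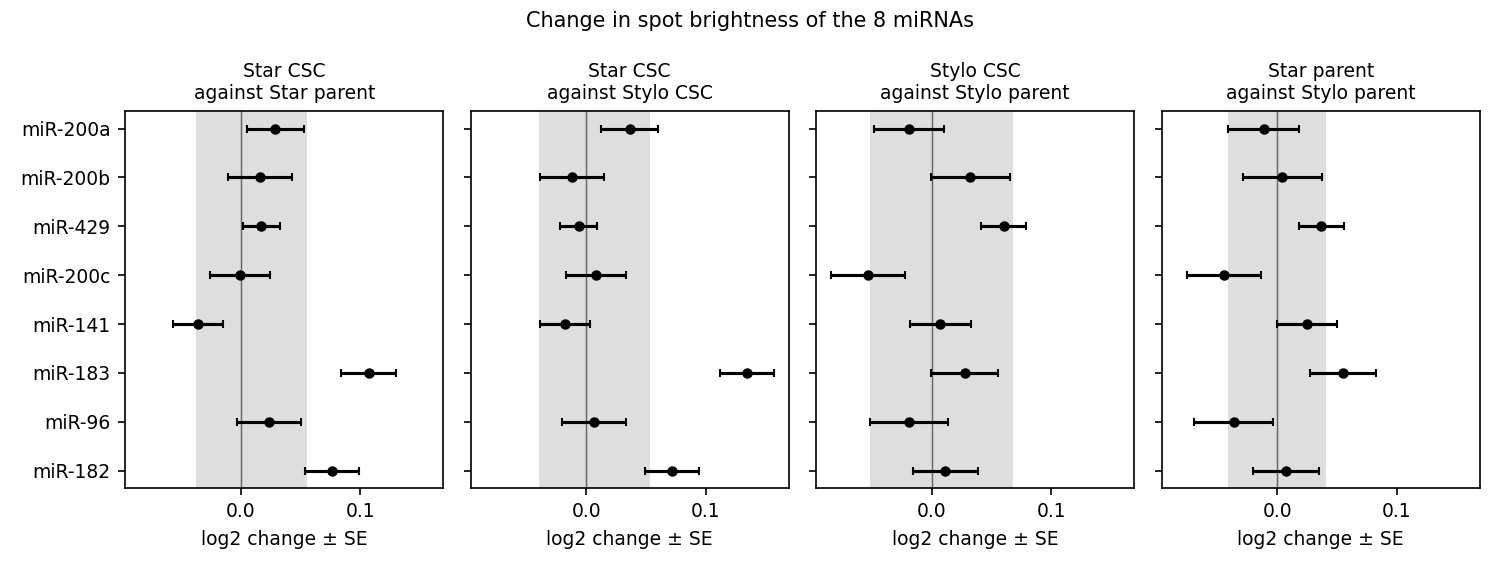
Log2 change in spot brightness (horizontal axis, points with SE bars from limma) of the 8 miRNAs in 4 comparisons, with the grey band spanning the 5th to 95th percentile of changes among the 400 miRNAs that were well above background on no array. MiR-183 and miR-182 lie outside the band in both comparisons with Star CSC, at 0.11 and 0.08 against Star parent and 0.13 and 0.07 against Stylo CSC. Outside it are also miR-183 in Star parent against Stylo parent (0.05) and miR-200c in both comparisons with Stylo parent (−0.05 each).

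The deposited value table holds log2 totals per miRNA, shifted per array and centred per miRNA, so its values as deposited do not show detection directly. The shift and the centring were undone, with the centring taken from the scanner totals. Undetected miRNAs then share 1 low value on each array. In these totals miR-183 was above that value in 2 of 2 Star CSC columns and miR-182 in 1 of 2. No other member was, in any column of the 4 groups. Since the centring came from the scanner totals, the columns that follow their scanner files repeat the software's call. They are no separate detection. The software's total for miR-183 was 7.26 ± 0.990 and 3.02 ± 0.780 units in Star CSC (its own error), and for miR-182 it was 3.60 ± 0.854 units in Star CSC replicate 1. From the scaled totals of the value table miR-183 was at least 1.58-fold higher in Star CSC than in Star parent, and no bound over 1 was obtained against Stylo CSC. It did not pass in limma on those totals with undetected arrays set at a common floor (adjusted p = 0.380 and 0.370), where 35.7% and 19.6% of 56 miRNAs did. That fit took all 8 columns, with Stylo parent as 2 columns although their scanner values were identical. Its p-values and shares therefore do not rest on the 7 distinct arrays alone. The columns of Stylo CSC replicate 1 and Stylo parent replicate 2 followed their scanner files at 420 and 417 of 475 entries, against all 475 in the others, and neither listed a member above the undetected value.

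Other miRNAs tied to the epithelial state were mostly at background too. The marker list of 7 epithelial miRNAs, the 5 miR-200 members with miR-203 and miR-205 of stratified epithelia, had 0 of 7 well above background on any array. Its summed level was −39.9 to −18.7 units in Star CSC, −29.6 to −14.9 in Star parent, −25.7 to −15.7 in Stylo CSC and −36.3 in Stylo parent. These defining markers of epithelial cells were thus not detected in any group of this mammary tumour line. Mesenchymal markers (miR-143, miR-145, miR-214 and miR-10b) had 0 of 4, muscle markers 0 of 4 and the endothelial miR-126 0 of 1. Among 6 haematopoietic markers, miR-223 and miR-155 were well above background, both on the Stylo parent array alone.

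Of another list of 9 miRNAs of epithelial cells, which again held miR-203 and miR-205, 2 were well above background, miR-34a and miR-31. This list and those below were chosen with earlier results of these data known. Their counts therefore describe the lists and are no independent result. MiR-31, known to restrain metastasis of human breast cancer cells, measured 86.5 and 68.0 units in Star CSC, 12.8 and 12.3 in Star parent, 5.94 and 11 in Stylo CSC and 4.97 in Stylo parent. It was well above background on both Star CSC arrays and on no other. Its scaled signal was at least 1.95-fold higher in Star CSC than in Star parent and at least 1.63-fold higher than in Stylo CSC, and no p is given on that scale, where the other arrays sit at 1 floor with no spread. In spot brightness, over all 454 miRNAs, miR-31 rose by 0.33 ± 0.03 in Star CSC against Star parent (adjusted p = 0.00724 from limma) and by 0.35 ± 0.03 against Stylo CSC (adjusted p = 0.0103). It was the 1 of 9 in this list to pass there, and 0 of 9 passed in the other comparisons. No miRNA passed in either of the Star CSC comparisons without Star CSC replicate 1, nor against Star parent without either Star parent array. The 3 calls over all miRNAs against Star parent became 18 without either Stylo CSC array, and the 5 against Stylo CSC became 3 without either Star parent array, 11 without Stylo CSC replicate 1 and 40 without Stylo CSC replicate 2. Without the last, 7 passed in Stylo CSC against Stylo parent and 11 in the difference between the lines, where all arrays gave 0.

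MiR-34a, a target of p53, measured 298 and 253 units in Star CSC, 140 and 131 in Star parent, 30.2 and 124 in Stylo CSC and 85.6 in Stylo parent. Its scaled log2 signal was 0.47 ± 0.54 higher in Star CSC than in Star parent (adjusted p = 0.734 from limma).

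Of 15 miRNAs on the array that have been tied to the epithelial to mesenchymal transition or to mesenchymal cells, 9 were well above background on at least 1 array, among them miR-125b, miR-21 and miR-29a. Over all 454 miRNAs that share was 11.9%, but this list was chosen with earlier results of these data known. MiR-21 measured 174 and 155 units in Star CSC, 86.4 and 77.0 in Star parent, 101 and 93.0 in Stylo CSC and 87.2 in Stylo parent. These signals are unscaled. Its scaled log2 signal in Star CSC differed by 0.46 ± 0.25 from Star parent (adjusted p = 0.383 from limma). From Stylo CSC it differed by −0.14 ± 0.25 (adjusted p = 0.881). MiR-125b measured 476 and 417 units in Star CSC, 568 and 523 in Star parent, 159 and 342 in Stylo CSC and 413 in Stylo parent. After scaling, its log2 signal in Star CSC differed by −0.84 ± 0.22 from Star parent (adjusted p = 0.110 from limma). The difference from Stylo CSC was 0.04 ± 0.22 (adjusted p = 0.958). In spot brightness 2 of the 15, miR-103 and miR-107, were higher in Star CSC against Stylo CSC (0.38 ± 0.04, adjusted p = 0.0169, and 0.21 ± 0.02, adjusted p = 0.0206, from limma), and 0 of 15 passed in the other comparisons.

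Of 12 miRNAs listed for a loss in human or mouse breast cancer stem cells, 7 were well above background on at least 1 array, let-7b and let-7a the brightest. Over all 454 miRNAs that share was 11.9%, and this list too was chosen with earlier results known. Let-7a, a suppressor of RAS genes, measured 2451 and 2200 units in Star CSC, 1128 and 1077 in Star parent, 613 and 1436 in Stylo CSC and 995 in Stylo parent, unscaled. After scaling, its log2 signal in Star CSC differed by 0.52 ± 0.26 from Star parent (adjusted p = 0.383 from limma). The difference from Stylo CSC was 0.41 ± 0.26 (adjusted p = 0.568). In spot brightness 1 of the 12, let-7f, was higher in Star CSC against Star parent (0.55 ± 0.04, adjusted p = 0.00724 from limma). In Star CSC against Stylo CSC 3 of 12 were higher, let-7f (0.50 ± 0.04, adjusted p = 0.0111) with miR-103 and miR-107, which both lists hold. In the other comparisons 0 of 12 passed. The median change of the list was 0.15 against Star parent and 0.17 against Stylo CSC, beside 0.01 over all 454 miRNAs in each. The 75th percentile of the bright probes was also highest on the Star CSC arrays, as given above. In the fit of scaled processed signals, 0 of the 7 miRNAs of this list that it held were called against Star parent. Against Stylo CSC 1 of 7 was called, as higher in Star CSC. The part of array brightness in the calls on spot brightness was not tested beyond that fit.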

How the data were processed

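Per the labels' protocols, total RNA was extracted with a column kit, required an RNA integrity number of 7 or more, and 100 ng was labelled with Cy3. The scanner files hold spot intensity values that the authors made with Agilent Feature Extraction 11.5.1.1, per the submitters' processing notes, and flags of other kinds (outlier, well above background, detected). The deposited value table holds log2 totals, with column medians between −0.94 and 6.15. Set against the scanner totals, its direction and log2 scale followed, after 1 shift per array and a centring of each miRNA that the labels do not explain. Members and lists were chosen with earlier results of these data known.

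Outlier spots were left out, spots of a probe averaged, and probe means summed per miRNA. Processed signals were divided by the array's 75th percentile over 22 probes, floored and log2 transformed. Spot brightness was log2 of the median spot intensity, which replaced the planned mean intensity (not used here), centred on each array's median. Fits used limma 3.58.1 in R 4.3.3 over 7 arrays with 3 residual degrees of freedom, and were tested on simulated data. The fit on the deposited value table used its 8 columns instead. MiRNAs were to be named for a likeness to a member only if that member was well above background on at least 2 arrays, and none was.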

Additional observations from a re-analysis of the deposited data

Results flagged for a closer look

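The software's total for miR-182 on the array of Star CSC replicate 1 was 3.60 units and that for miR-183 on Star CSC replicate 2 was 3.02 units, although neither was well above background there by the spots. The other arrays gave these miRNAs no total above the undetected value of 0.1, apart from miR-183 in Star CSC replicate 1.

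Spots left out as outliers included bright ones that no value above uses. A spot of miR-200a measured 21402 units on the Stylo parent array, where the brightest kept spot of that miRNA measured 6.40 units. Single spots measured 38.3 units for miR-200a and 43.2 units for miR-141 on Star CSC replicate 2, the array with the most outlier spots (9.15%). For miR-182 the brightest left-out spots measured 32.2 units on Star CSC replicate 1 and 35.7 units on replicate 2. With outlier spots kept, 1 of 8 members was well above background, as without them.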

How the results depend on the processing

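The count of members well above background was 2 where any 1 spot of a probe sufficed and 2 by the software's call. The deposited value table, which repeats that call, also gave 2. The count was 4 where a probe mean above the 95th percentile of negative control probe means sufficed, and 0 where every spot was needed. Leaving out 1 replicate each gave 0 to 1, with 0 without Star CSC replicate 1. No member passed on processed signal under any of 82 alternatives, but most of these held no member and so could call none. The fit without the filter held 8 members. The fits on the deposited value table and without Star CSC replicate 2 held 1 member each. On spot brightness 94 of 97 counts were 0, and the exceptions were 1 (normexp, Star CSC against Stylo CSC) and 2 in each Star CSC comparison (unscaled processed signal of the brightest probe), with log2 changes of 0.27 and 0.33 for miR-183 and 0.31 and 0.32 for miR-182, and 0.14 for miR-183 under normexp. The part of array brightness in those calls was not tested beyond the scaled fits, which gave 0. All 78 alternative changes of miR-183 and miR-182 were above 0 in both Star CSC comparisons.

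Same-numbered samples did not deviate together (r between −0.30 and 0.16 on brightness and between −0.36 and −0.03 on processed signal). With 2 arrays per group, and Stylo parent left out, this cannot decide whether the numbers pair samples. With the replicate block 0 members passed, and miR-183 changed by 0.11 (adjusted p = 0.201) and 0.13 (adjusted p = 0.104). The fit without Stylo parent replicate 1 could not be made for comparisons with Stylo parent. The planned exchange of mean for median spot intensity was not run, since the median was used throughout. Signals near the negative controls limit what the arrays show: a level under the lowest marked spot of its array, 20.3 to 25.4 units, is a bound.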
